A study of Mus musculus with 20 samples.

Results

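The 34 genes described here mark the oligodendrocyte lineage and its myelin, and they were taken by symbol from a list of precursor, differentiating and myelinating genes. The list was chosen with earlier results of these data known. All 34 were found among the 49671 genes of the count tables. They fell into 2 precursor genes (Pdgfra, Cspg4), 4 transcription factors of the whole lineage (Olig1, Olig2, Sox8, Sox10), 5 genes of differentiating cells (Nkx2-2, Myrf, Gpr17, Enpp6, Bcas1) and 23 genes of myelinating cells. RNA from single hippocampi was sequenced in bulk, 1 hippocampus per mouse, in 20 adult male wild-type mice that were 10 to 12 weeks old. Each of 4 groups held 5 mice. Control mice received isotype antibodies by intraperitoneal injection. ICI mice carried no tumour and received immune checkpoint inhibitors, antibodies against CTLA-4 (1 mg per dose, 3 doses a week) and PD-1 (200 µg per dose, 2 doses a week). Melanoma mice carried intradermal tumours on both sides from D4M-3A.UV2, a melanoma line syngeneic to the host (500000 cells per injection), and received isotype antibodies. Mice of the combined group (mel.+ICI in the plots, or melanoma plus ICI) carried the same tumours and received the same antibody pair, for 3 weeks. Tumours had 1 week to engraft before treatment, and tissue was collected 72 hours after dosing ended. The design asked how tumour, checkpoint blockade and their combination were reflected in the hippocampus.

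Oligodendrocytes wrap axons in myelin, a stack of lipid-rich membrane that insulates the axon and speeds its impulses. They arise from dividing precursor cells that carry the receptor for platelet-derived growth factor and the proteoglycan NG2. As a precursor leaves the cell cycle, it passes through a short premyelinating state marked by Gpr17, Enpp6 and Bcas1, and then makes the myelin proteins in large amounts. In the hippocampus, myelin is dense in the alveus and fimbria along the edge of the structure and sparse among the cell bodies.

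The bases just upstream of the start sites of 5 stage representatives are shown as a description. Whether they bear on how the members moved across hippocampi, described further on, was not tested. The sequences are from RefSeq (build GRCm38.p6), the 250 bases before the start, read 5′ to 3′ on the gene's own strand. Capitals mark letters of 3 searched motifs: CTGGNAC, part of the motif of the myelin regulatory factor Myrf, ACAAAG or ACAATG, written for SOX factors, and CAGCTG, an E-box bound by Olig-type factors. Motifs were searched on both strands. CAGCTG and CTGGNAC can overlap in the letters CTG. A match is a match of letters and no more.
Pdgfra (chr5:75152001-75152250, plus strand): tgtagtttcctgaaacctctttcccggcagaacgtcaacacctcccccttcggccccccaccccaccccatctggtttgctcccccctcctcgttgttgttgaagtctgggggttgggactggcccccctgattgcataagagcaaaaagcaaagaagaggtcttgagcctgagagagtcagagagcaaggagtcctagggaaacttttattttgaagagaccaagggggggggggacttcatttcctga
Olig2 (chr16:91225300-91225549, plus strand): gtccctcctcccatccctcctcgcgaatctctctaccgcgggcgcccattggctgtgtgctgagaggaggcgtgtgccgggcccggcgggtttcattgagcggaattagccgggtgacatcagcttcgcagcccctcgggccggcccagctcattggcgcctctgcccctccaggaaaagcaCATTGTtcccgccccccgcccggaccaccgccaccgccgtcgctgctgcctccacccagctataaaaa
Enpp6 (chr8:46986637-46986886, plus strand): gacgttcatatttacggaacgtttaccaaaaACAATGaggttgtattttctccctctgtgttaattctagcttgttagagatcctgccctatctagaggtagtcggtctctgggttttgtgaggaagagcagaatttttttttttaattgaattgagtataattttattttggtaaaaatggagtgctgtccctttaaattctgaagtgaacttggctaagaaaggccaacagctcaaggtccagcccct
Mog (chr17:37023399-37023648, minus strand): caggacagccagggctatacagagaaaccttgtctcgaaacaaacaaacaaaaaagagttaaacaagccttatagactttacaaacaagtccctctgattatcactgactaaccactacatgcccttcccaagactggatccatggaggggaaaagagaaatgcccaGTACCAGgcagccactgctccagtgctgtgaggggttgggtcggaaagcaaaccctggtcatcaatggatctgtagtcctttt
Opalin (chr19:41077114-41077363, minus strand): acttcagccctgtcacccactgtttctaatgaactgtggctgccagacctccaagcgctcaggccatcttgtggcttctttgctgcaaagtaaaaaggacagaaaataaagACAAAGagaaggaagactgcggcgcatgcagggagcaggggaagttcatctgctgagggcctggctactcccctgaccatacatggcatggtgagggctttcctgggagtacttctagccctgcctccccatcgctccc
Of the 34 members, 25 had an entry in the promoter table. A Myrf motif lay upstream of at least 1 listed start of 8 of these 25 genes, a SOX motif of 11 and an E-box of 3. Over all 32851 listed promoters, some genes having several, the shares per promoter were 16.1% for the Myrf motif, 25.2% for the SOX motifs and 13% for the E-box. The 2 precursor genes held none of the 3, and neither did Nkx2-2, Cldn11, Mal, Gjc3, Gpr37, Nkx6-2 or Ugt8a. Mog held a Myrf motif, and Opalin, Enpp6 and Olig2 held a SOX motif each.

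The deposited tables place Pdgfra on chromosome 5 (75152292 to 75198215, plus strand), Olig2 on chromosome 16 (91225550 to 91228677, plus) beside Olig1 (91269772 to 91271933, plus), and Apod further up the same chromosome (31296192 to 31314808, minus). Mog lies on chromosome 17 (37010743 to 37023398, minus), as does Sox8 (25565892 to 25570686, minus). Opalin lies on chromosome 19 (41062474 to 41077113, minus), Hapln2 on chromosome 3 (88021750 to 88027583, minus), Enpp6 on chromosome 8 (46986887 to 47096762, plus) and Nkx2-2 on chromosome 2 (147177546 to 147194243, minus). The genes were counted over their exons, as whole genes and not as isoforms, and the tables name no build, although the starts of 4 of these genes meet the GRCm38.p6 promoters shown.

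Total counts ran from 21990624 to 25735149 per library, and the 34 members together took between 0.351% and 0.915% of them. All 34 passed the filter on low counts, as did 18427 genes in all. Levels are given as counts per 1000000 (CPM) scaled by the trimmed mean of M values. 2 libraries stood apart from the rest. In control 4 and combined 1 genes of at most 1157 bases lay above genes of at least 8744 bases by 0.70 and 0.42 (log2, medians of each gene's deviation from its mean), against -0.22 to 0.08 in the other 18. The fits, the spread and the main correlations are also given without them. Dissections also differed: the score of choroid plexus genes (their mean log2 CPM) ran from 0.14 to 6.73, that of dentate gyrus genes from 3.36 to 6.48 and that of striatal genes from 2.70 to 6.50. The score of neocortical genes ran from 2.02 to 4.66. Field CA1 genes lay between 5.20 and 6.43 in every library. In bulk tissue, fewer cells of a type and less RNA per cell cannot be told apart.

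Levels per gene length were highest for structural myelin proteins. On the scale of CPM per kilobase of the deposited gene length, averaged over the 20 libraries, Mbp, the myelin basic protein that compacts the membrane, stood first at 345. Mobp, another basic protein of myelin, followed at 135, Cnp, the phosphodiesterase of the inner loops, at 97.5, Cldn11, the claudin of myelin's tight junctions, at 84.7, and Mal, a raft protein that sorts myelin cargo, at 79.9. Lineage factors ranged from 11.9 for Olig2 to 48.5 for Olig1. The precursor receptor Pdgfra was at 6.13 and Cspg4, the NG2 proteoglycan, at 2.22. The lowest were Ninj2 at 1.90, Nkx2-2 at 1.69 and Enpp6, a choline phosphodiesterase of newly formed oligodendrocytes, at 1.162.

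Pdgfra was at 72.8, 61.1, 59.5, 45.9 and 60.5 CPM in the 5 control hippocampi, at 72.3, 66.7, 47.2, 60.9 and 70.4 CPM in ICI, at 57.6, 53.2, 57.1, 52.8 and 72.7 CPM in melanoma and at 50.1, 77.4, 63.6, 71.9 and 55.1 CPM in the combined group. The groups overlapped throughout, and the whole range was 1.68-fold. Group means were 60.0 ± 9.55 CPM (SD, n = 5) for control, 63.5 ± 10.1 for ICI, 58.6 ± 8.13 for melanoma and 63.6 ± 11.3 for the combined group. Its log2 fold change in ICI against control was 0.08 (SE 0.14). Cspg4 was at 14.5 CPM in control 4 and 14.6 CPM in combined 1, and between 24.1 and 31.3 CPM in the other 18. Its low values were those of the 2 libraries in which long genes were low. These 2 libraries also had the highest scores of neuronal genes, 9.25 and 9.19, and neocortical scores of 4.29 and 4.58. Which of these goes with the low Cspg4 was not tested.

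Olig2, which sets and keeps oligodendrocyte identity, was at 27.0, 32.1, 28.9, 33.1 and 34.3 CPM in control, at 21.1, 26.3, 23.2, 31.8 and 24.8 CPM in ICI, at 29.4, 39.3, 31.4, 28.6 and 28.9 CPM in melanoma and at 22.5, 25.1, 35.4, 29.8 and 27.0 CPM in the combined group. In ICI, 4 of 5 values lay below all controls, and the fifth lay within them. Its neighbour Olig1, a related factor needed for maturation, was at 88.2, 109.9, 92.4, 153 and 122 CPM in control, at 78.3, 93.1, 86.2, 110.2 and 86.3 CPM in ICI, at 102.3, 124, 110.4, 102.1 and 109 CPM in melanoma and at 124, 89.7, 117, 103.1 and 96.4 CPM in the combined group. Its highest value was in control 4, a library that stood apart, and the groups overlapped. Sox8, a partner of Sox10 in myelin gene activation, was at 42.2, 43.2, 43.0, 52.5 and 63.3 CPM in control, at 50.7, 49.0, 42.9, 49.996 and 46.3 CPM in ICI, at 56.6, 68.1, 74.0, 50.6 and 68.1 CPM in melanoma and at 63.6, 40.4, 79.2, 43.5 and 46.3 CPM in the combined group. Melanoma values were high as a group but shared their range with control 4 and control 5. Sox10, the factor that switches on myelin genes directly, had the same order of group means as Mog, with 59.4 ± 15.4 CPM for control, 54.7 ± 12.4 for ICI, 63.9 ± 9.39 for melanoma and 55.6 ± 8.75 for the combined group (SD, n = 5).

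Among the genes of differentiating cells, levels fell into separate patterns. Gpr17, a receptor of the premyelinating state, was at 58.2, 56.1, 58.6, 38.1 and 55.7 CPM in control, at 50.7, 54.95, 46.9, 54.6 and 59.2 CPM in ICI, at 50.7, 63.9, 58.4, 54.4 and 57.9 CPM in melanoma and at 34.4, 62.5, 53.5, 56.5 and 50.3 CPM in the combined group. Outside the 2 libraries that stood apart, its values spanned only 46.9 to 63.9 CPM. Enpp6, in contrast, was at 4.04, 8.51, 4.92, 11.4 and 9.48 CPM in control, at 3.90, 6.27, 6.29, 11.4 and 5.60 CPM in ICI, at 7.27, 8.92, 8.97, 6.15 and 9.94 CPM in melanoma and at 6.90, 3.95, 10.95, 8.77 and 5.29 CPM in the combined group. That was a 2.93-fold range, with low and high hippocampi in each of control, ICI and the combined group. Nkx2-2, a factor of early differentiation, was at 4.66, 5.10, 5.10, 7.89 and 7.22 CPM in control, at 3.47, 4.02, 3.29, 5.02 and 6.09 CPM in ICI, at 4.25, 5.55, 5.03, 3.14 and 4.34 CPM in melanoma and at 4.64, 3.59, 4.06, 6.12 and 4.72 CPM in the combined group. Its 2 highest values were in control 4 and control 5. An antisense gene, Nkx2-2os, covers 9.67% of the exon bases of Nkx2-2, and whether the counting used strand is not given in the sources used here. Nkx6-2, Bcas1, Ermn, Pdgfra, Cnp, Gpr17 and Tspan2 also share exon bases with genes on the opposite strand, from 1.85% for Tspan2 to 12.9% for Nkx6-2. Myrf, the transcription factor that drives and maintains myelin genes, ran from 40.9 to 130 CPM, and Bcas1, a protein of early myelinating cells, from 104.4 to 293 CPM.

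Most myelin genes varied widely between mice of the same group. Mog, a glycoprotein on the outer face of the sheath, was at 28.0, 61.8, 37.7, 81.3 and 76.6 CPM in control, at 28.4, 49.9, 43.0, 66.2 and 43.6 CPM in ICI, at 59.5, 86.4, 65.0, 58.3 and 64.3 CPM in melanoma and at 63.1, 30.0, 76.6, 52.9 and 36.3 CPM in the combined group. Mbp was at 1441, 3383, 2021, 4004 and 4173 CPM in control, at 1536, 2581, 2123, 3604 and 2109 CPM in ICI, at 3234, 4217, 3472, 3156 and 3674 CPM in melanoma and at 3076, 1383, 4034, 2711 and 2027 CPM in the combined group. The same hippocampi were low for Mog and Mbp: control 1, ICI 1 and combined 2 had the 3 lowest values of each gene. Group means of Mog were 57.1 ± 23.5 CPM for control, 46.2 ± 13.7 for ICI, 66.7 ± 11.4 for melanoma and 51.8 ± 19.1 for the combined group (SD, n = 5), and all groups overlapped. No member had groups without overlap in CPM in any of the 5 pairwise comparisons; among all tested genes, 0.885% did in ICI against control, 1.04% in melanoma against control, 0.304% in the combined group against control, 1.54% in the combined group against melanoma and 1.45% in the combined group against ICI.

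**Figure D1:**
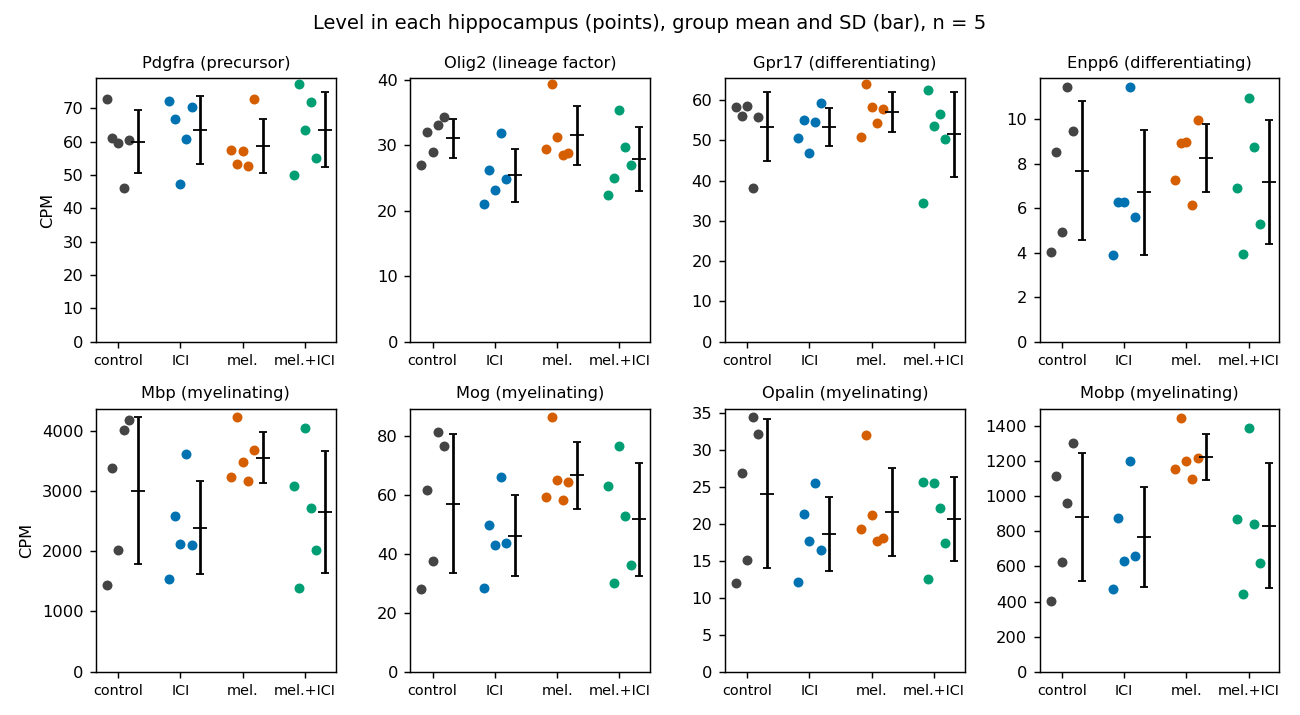
CPM (vertical axis, from 0) of 8 members in each hippocampus (points) of the 4 groups, with the group mean and SD (n = 5). Mog and Mbp spread about 3-fold within control (Mog 28.0 to 81.3 CPM), whereas Pdgfra spans 45.9 to 77.4 CPM over all 20.

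Within groups, the standard deviation of log2 CPM had a median of 0.483 over the 23 myelinating members (range 0.285 to 0.594) and of 0.479 over the 5 differentiating ones. It was 0.244 over the 4 lineage factors and 0.280 over the 2 precursor genes, against a median of 0.264 over all 18427 tested genes. Without control 4 and combined 1 these medians were 0.490, 0.498, 0.237 and 0.169, and that of all tested genes 0.218. Among myelinating members, Car2, a carbonic anhydrase, varied least, and Ninj2, an adhesion molecule near the floor of the list at 0.652 to 2.75 CPM, varied most. Most of the spread was shared among most myelin genes. Once each library's log2 ratio to Mog was taken, the median SD of the other myelinating members was 0.147, with 0.0836 for Mbp and 0.372 for Ninj2 at the ends. Apod varied slightly more as a ratio (0.369) than by itself (0.339), and Car2 nearly as much (0.262 and 0.285). Ninj2 (0.594 by itself), Gjc3 (0.250 and 0.385) and Gpr37 (0.231 and 0.369) also kept much of their spread. For the precursor genes the ratio to Mog varied more than the genes themselves, with a median SD of 0.686.

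**Figure D2:**
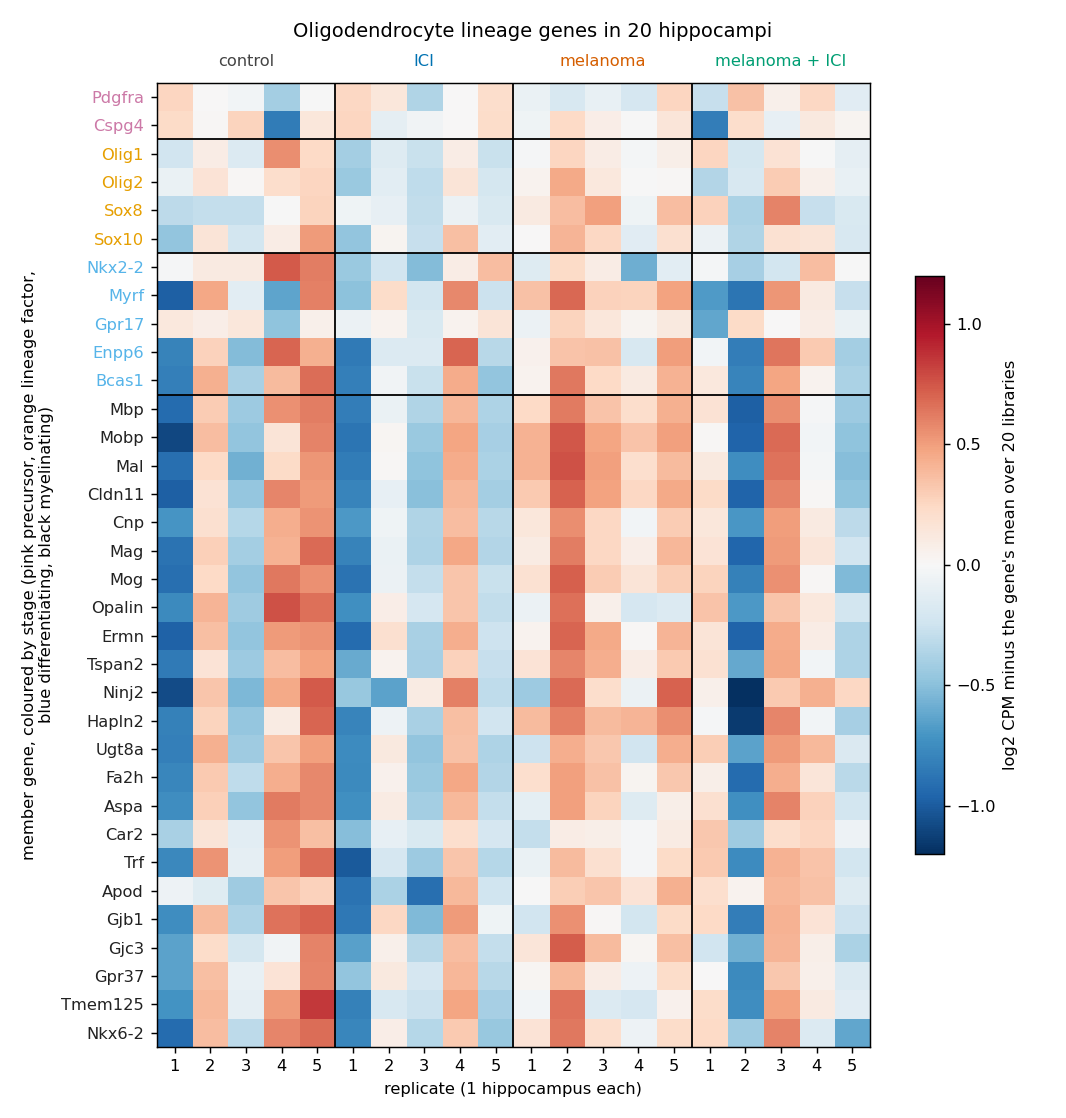
Colours show log2 CPM minus the gene's mean over 20 libraries for the 34 members (rows, grouped by stage) in each hippocampus (columns, grouped by treatment). Control 1, ICI 1 and combined 2 are low for nearly every myelin gene, while the rows of Pdgfra, Cspg4 and Gpr17 do not follow them.

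The members were then compared with Mog across the 20 libraries, as log2 CPM (33 relations, two-sided permutation tests with 100000 resamples, Benjamini-Hochberg adjusted over the 33). For 30 of 33 the adjusted p was under 0.05, with a negative r for Pdgfra and a positive one for the rest of the 30. Pearson's r was over 0.9 for 17 of them, as it was for 0.282% of all tested genes, whose median r was 0.0106. The share of all tested genes with an adjusted p under 0.05 is not given here. The other 22 myelinating members had r between 0.68 (Apod) and 0.99 (Mbp), with a median of 0.935. Mbp gave r = 0.988 and rho = 0.974 (permutation p = 1e-05, the smallest that 100000 resamples can give, adjusted 1.38e-05), and r = 0.983 without the 2 libraries farthest from the median of Mog. On deviations from the group means its r was 0.986, so the relation held within groups. A correlation between libraries here includes whatever the libraries share in dissection and depth.

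Differentiating genes did not act as a block. Bcas1 (r = 0.971, rho = 0.944) and Enpp6 (r = 0.926, rho = 0.911, both with adjusted permutation p = 1.38e-05) followed Mog like a myelin gene, and without the 2 libraries farthest from the median of Mog r was 0.956 and 0.892. Gpr17 did not (r = -0.19, rho = -0.06, adjusted permutation p = 0.437), and its r was 0.13 without control 4 and combined 1. Myrf had r = 0.69 (rho = 0.70, adjusted permutation p = 0.0012) over the 20 libraries and r = 0.96 without these 2, in which it was at 52.2 and 50.3 CPM beside 81.3 and 63.1 CPM of Mog. Nkx2-2 was at r = 0.44 (rho = 0.45, adjusted permutation p = 0.0534).

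The 4 lineage factors had r with Mog from 0.70 for Sox8 to 0.89 for Sox10. Olig1 had r = 0.871 (rho = 0.919) and Olig2 r = 0.733 (rho = 0.773), with adjusted permutation p of 1.38e-05 and 0.000432. The 2 precursor genes had a negative r. For Pdgfra r was -0.48 (permutation p = 0.031, adjusted 0.0341) and rho was -0.43 (adjusted permutation p = 0.0628), and on deviations from the group means r was -0.45 (adjusted permutation p = 0.0848). Cspg4 had r = -0.43 (rho = -0.39, adjusted permutation p = 0.0534). For Pdgfra r was -0.34 without the 2 libraries farthest from the median of Mog (permutation p = 0.171) and -0.39 without the 2 that stood apart (permutation p = 0.108). The relation of Pdgfra thus passed in 1 of these 5 forms of the test.

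**Figure D3:**
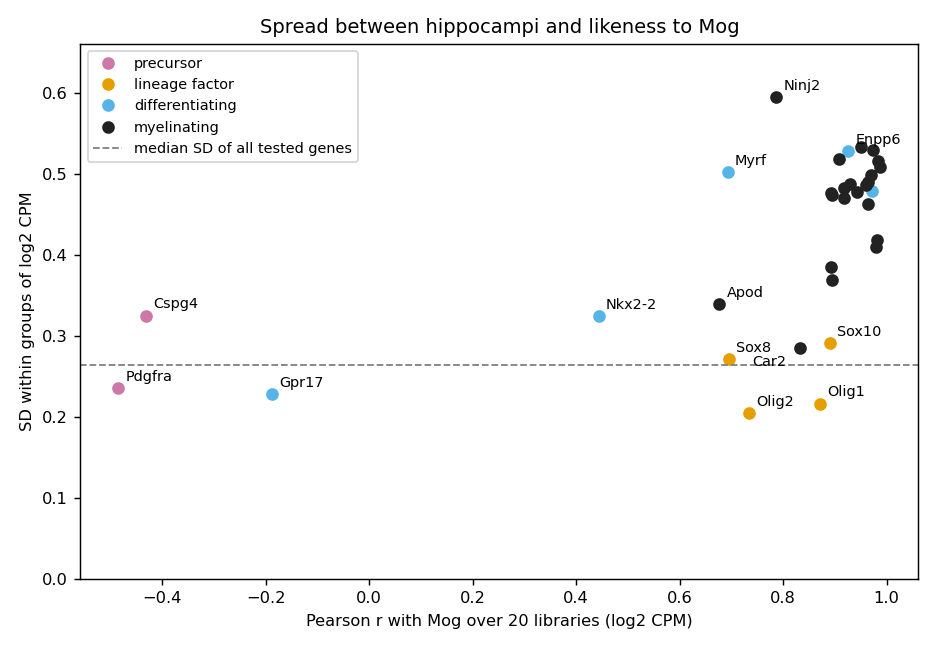
Each point is a member other than Mog: Pearson r with Mog over 20 libraries (horizontal axis, log2 CPM) against the within-group SD of log2 CPM (vertical axis), coloured by stage. Most myelinating members, with Bcas1 and Enpp6, cluster at the upper right, whereas Pdgfra, Cspg4 and Gpr17 lie below r = 0 (dashed line: the median SD of all tested genes, 0.264).

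Over all tested genes, the 40 most like Mog by Pearson's r over the 20 libraries held 15 members and 5 further genes from the pathway lists. The first 4 were Mbp, Cldn11 (0.983), Cnp (0.981) and Tspan2 (0.979), and the first gene outside the 34 was Plekhb1 at 0.979.

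The spread of the myelin genes differed between groups. Melanoma had the smallest within-group SD of the 4 groups for 23 of 23 myelinating members, while 42.8% of all tested genes had their smallest SD there. The median SD of log2 CPM over these members was 0.219 in melanoma, 0.612 in control, 0.452 in ICI and 0.502 in the combined group. Mog spanned 58.3 to 86.4 CPM in melanoma, a 1.48-fold range, against a 2.90-fold range in control. Without control 4 and combined 1 melanoma still had the smallest SD for 23 of 23 (31.7% of all tested genes), and the medians were 0.219, 0.662, 0.452 and 0.548. The members share 5 hippocampi per group and move together, so this is close to 1 observation on 5 mice, and the difference in spread was not tested.

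Between groups, none of the 34 members reached the adjusted threshold of 0.05 in any pairwise comparison or in the interaction of tumour and ICI (edgeR's quasi-likelihood test, Benjamini-Hochberg over 18427 genes), and neither did any other gene. DESeq2 also called 0 of the 34 in each of the 6, with 0.00543%, 0.0434%, 0%, 0%, 0.0488% and 0.255% of all tested genes called in ICI, melanoma and combined against control, combined against melanoma, combined against ICI and the interaction. Limma voom with sample quality weights called 0 of the 34 as well, with 0%, 0.00543%, 0%, 0.136%, 0% and 0.103% of all tested genes called in that order. The comparisons share groups, and the 3 against control share all 5 control libraries.

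In ICI against control, 3 of 34 members had an unadjusted p under 0.05, all lower, against 5.23% of all tested genes (3.15% lower). They were Olig1 (113.02 ± 26.0 CPM in control, 90.8 ± 12.0 in ICI, log2 fold change -0.32, SE 0.13), Olig2 (31.1 ± 3.01 and 25.5 ± 4.05 CPM, -0.29, SE 0.13) and Nkx2-2 (5.996 ± 1.45 and 4.38 ± 1.17 CPM, -0.45, SE 0.20), each with an adjusted p of 0.766 by edgeR's quasi-likelihood test. Olig1 was at -0.19 without control 4, -0.18 by limma voom and -0.11 at an equal amount of myelin (a fit described further on) without control 4. Nkx2-2 was at -0.24 with scores of 4 other tissues as covariates and -0.19 with these and the amount of myelin. Olig2 was at -0.20 at an equal amount of myelin, and -0.18 when control 1 was left out as well. All 23 myelinating members had a negative log2 fold change, from -0.52 to -0.17 with a median of -0.28, where 52% of all tested genes had one and the median was -0.01. Both precursor genes had a positive one, but without the 2 libraries that stood apart all 34 members had a negative one, with a median of -0.17. The 23 are not independent, since they varied together across hippocampi, and Mog alone was at -0.30 with an SE of 0.28. The median over the 34 was -0.27, ran from -0.43 without ICI 4 to -0.14 without control 5, was -0.10 by limma voom and -0.04 with 4 tissue scores as covariates, and was 0.03 at an equal amount of myelin. The count at unadjusted p under 0.05 was 0 without control 4 (3.63% of all tested genes), 0 without ICI 3 (5.77%) and 8 without control 1 (6.19%).

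In melanoma against control, 2 of 34 members had an unadjusted p under 0.05, against 5.11% of all tested genes. Sox8 was at 48.9 ± 9.12 CPM in control and 63.5 ± 9.55 in melanoma (log2 fold change 0.38, SE 0.16), and Nkx2-2 at 5.996 ± 1.45 and 4.46 ± 0.909 CPM (-0.43, SE 0.20), both with an adjusted p of 0.877 by edgeR's quasi-likelihood test. Nkx2-2 was at -0.23 with 4 tissue scores as covariates, and Sox8 at 0.13 with the amount of myelin and the score of striatal genes as covariates. Of the 23 myelinating members 17 had a positive log2 fold change (48% of all tested genes did), with a median of 0.16, and the median over the 34 was 0.13. That median depended on control 1, the hippocampus with the least Mog, was -0.01 without it, and was 0.36 by limma voom, which weights libraries by quality, 0.34 with 4 tissue scores as covariates and -0.0013 at an equal amount of myelin. The count at unadjusted p under 0.05 was 0 without melanoma 5 (3.8% of all tested genes) and 5 without control 5 (6.17%). Among the myelinating members Mal had the smallest p, with a log2 fold change of 0.46 (SE 0.28).

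In the combined group against control, 0 of 34 members had an unadjusted p under 0.05 by edgeR (2.38% of all tested genes did), by DESeq2 (2.66%) and by limma voom (5.37%). The smallest p was that of Nkx2-2, with 4.62 ± 0.954 CPM in the combined group (log2 fold change -0.37, SE 0.20, adjusted p 0.9997 by edgeR's quasi-likelihood test). The median over the 34 was -0.11, and 30 of them lay below 0, as did 49.3% of all tested genes. It was -0.06 at an equal amount of myelin.

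In the combined group against melanoma, the count at unadjusted p under 0.05 was 0 of 34 by edgeR (5.5% of all tested genes), 1 by DESeq2 (6.1%) and 16 by limma voom with quality weights (14.9%). All 16 were lower, where 7.85% of all tested genes had such a p and were lower. Hapln2, a link protein at the nodes of Ranvier, had the smallest p by edgeR. It was at 18.4, 38.9, 23.4, 34.7 and 52.7 CPM in control, at 18.7, 31.0, 24.7, 41.6 and 27.7 CPM in ICI, at 42.0, 49.4, 42.2, 42.9 and 47.6 CPM in melanoma and at 32.1, 14.6, 48.5, 31.7 and 24.6 CPM in the combined group. 4 of the 5 combined-group values lay below all melanoma values, and combined 3 lay inside them. On the log2 scale it differed by -0.56 (SE 0.28, adjusted p 0.825 by edgeR's quasi-likelihood test), by -0.91 by limma voom and by -0.99 with 4 tissue scores as covariates, but by -0.39 without combined 2 and by -0.37 at an equal amount of myelin (-0.32 there without melanoma 4). The median over the 34 was -0.21 by edgeR, with 31 below 0 (46.5% of all tested genes were), -0.43 by limma voom, -0.50 with 4 tissue scores as covariates and -0.05 at an equal amount of myelin. Without combined 3 the count was 9 in place of 0 (9.15% of all tested genes).

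In the combined group against ICI, 1 of 34 members had an unadjusted p under 0.05, against 8.63% of all tested genes. Apod, a lipid-binding lipocalin made by oligodendrocytes and by meningeal and vascular cells, was at 106, 100.04, 82.3, 138 and 133 CPM in control, at 59.5, 84.9, 58.9, 144 and 93.6 CPM in ICI, at 110.3, 135, 138, 124 and 148 CPM in melanoma and at 127, 113.5, 145, 140.3 and 98.8 CPM in the combined group. All combined-group values lay above 4 of the 5 ICI values. On the log2 scale it differed by 0.50 (SE 0.20, adjusted p 0.563 by edgeR's quasi-likelihood test). The score of meningeal genes, whose cells also make Apod, was 2.85 ± 0.72 in ICI and 3.86 ± 0.54 in the combined group. Over the 20 libraries Apod and that score had r = 0.45 (rho = 0.35, adjusted permutation p = 0.201), or 0.16 without the 2 libraries farthest from the median of the score. With 4 tissue scores as covariates, the meningeal score among them, the difference in Apod was 0.0048 (adjusted p 0.997 by edgeR's quasi-likelihood test). The meningeal score was not fitted alone. The median over the 34 was 0.13 with 30 above 0 (55% of all tested genes were), but it was -0.02 without combined 3, -0.05 by limma voom, -0.12 with 4 tissue scores as covariates and -0.08 at an equal amount of myelin.

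The interaction, the log2 fold change of ICI with a tumour minus the same without one, gave 0 of 34 members at unadjusted p under 0.05 by edgeR (10.3% of all tested genes), 0 by DESeq2 (11.1%) and 5 by limma voom (12.7%). Nkx2-2 had the smallest p at 0.50 (SE 0.29, adjusted p 0.494 by edgeR's quasi-likelihood test), and was at 0.024 with 4 tissue scores as covariates. The median over the 34 was -0.02 by edgeR, with 14 above 0 (52.8% of all tested genes were) and 20 below, but it was 0.17 without ICI 4, -0.17 without control 5, -0.38 by limma voom, -0.47 with 4 tissue scores as covariates and -0.09 at an equal amount of myelin.

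Without control 4 and combined 1, the members at unadjusted p under 0.05 by edgeR numbered 1 in ICI against control (4.87% of all tested genes), 1 in melanoma against control (5.16%), 0 in the combined group against control (3.84%), 0 against melanoma (7.11%), 1 against ICI (10.1%) and 0 in the interaction (7.99%). The medians over the 34 were then -0.17, 0.22, -0.08, -0.22, 0.10 and -0.09 in that order. Nkx2-2, highest in control 4, differed by -0.34 in ICI, -0.32 in melanoma and -0.26 in the combined group against control, and by 0.40 in the interaction.

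**Figure D4:**
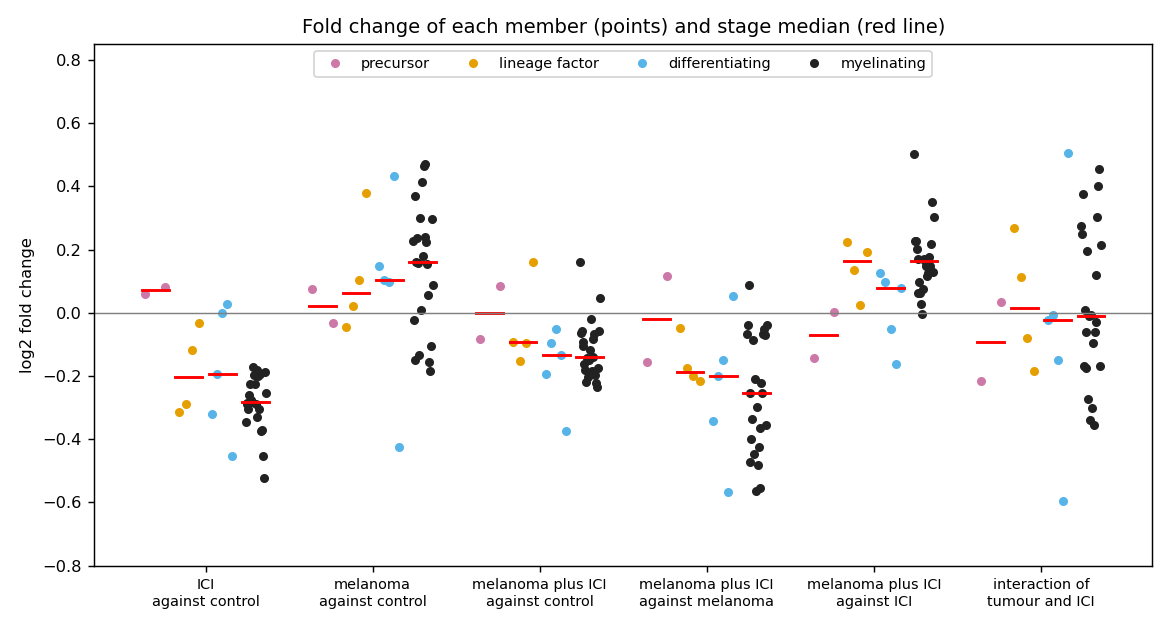
Log2 fold change (vertical axis) of each member in the 5 pairwise comparisons and the interaction, coloured by stage, with the stage median as a red line. The 23 myelinating members lie together on 1 side of 0 in ICI against control (median -0.28) and mostly below 0 in the combined group against melanoma (median of all 34 members -0.21).

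Of the other genes of the lineage, taken from lists also chosen with earlier results known, none passed the adjusted threshold by edgeR's quasi-likelihood test in any of the 6 comparisons. Of 28 further myelin genes, 25 had a negative log2 fold change in ICI against control (median -0.22), as did 52% of all tested genes, and 27 in the combined group against melanoma (median -0.15), as did 46.5%. The smallest p of this list over the 6 comparisons was 0.0193 for Pla2g16, a phospholipase, in the combined group against ICI (log2 fold change 0.30, SE 0.12). Of 11 further precursor genes the smallest p was 0.016 for Neu4, a sialidase, in the combined group against melanoma (-0.23, SE 0.09), and 7 of 11 had a positive log2 fold change in ICI against control, a share not far from the 48% of all tested genes. Of 10 further differentiating genes the smallest was 0.00931 for Bmp4, a secreted signal made by newly formed oligodendrocytes, in the combined group against ICI (0.80, SE 0.28, adjusted p 0.563). In that comparison 4 of the 10 had an unadjusted p under 0.05, against 8.63% of all tested genes: Bmp4 and Cnksr3 (0.55) with a positive and Mycl (-0.58) and Zfp536 (-0.31) with a negative log2 fold change. In the combined group against melanoma 2 of the 10 did, Zfp536 (-0.34) and Itpr2 (-0.29), against 5.5%. Of 17 signals and receptors that act on the lineage, the smallest was 0.0118 for Id2, an inhibitor of differentiation, in the interaction (0.91, SE 0.33, adjusted p 0.476).

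Because the RNA level of myelin genes differed within groups, by 1.48-fold for Mog in melanoma and up to 2.90-fold in control, the members were also set against Mog within each hippocampus. These ratios were looked at after the values were seen and are a description. Opalin, a membrane glycoprotein of myelinating cells, was at 12.0, 26.8, 15.1, 34.4 and 32.05 CPM in control, at 12.2, 21.3, 17.6, 25.5 and 16.4 CPM in ICI, at 19.3, 31.9, 21.1, 17.6 and 18.1 CPM in melanoma and at 25.7, 12.5, 25.4, 22.1 and 17.3 CPM in the combined group. As a ratio to Mog it was 0.400 to 0.434 in control, 0.378 to 0.429 in ICI, 0.281 to 0.370 in melanoma and 0.332 to 0.479 in the combined group. All 5 melanoma ratios lay below all control and all ICI ratios. Against control, 5 of 33 members had melanoma ratios that did not overlap: Opalin, Gjb1 (a gap junction connexin), Aspa (the enzyme that splits N-acetylaspartate) and Nkx2-2 were lower, and Mal was higher. Among all tested genes, 0.418% had such ratios, most of which do not follow Mog and so carry its full spread. Gjb1 was at 0.261 to 0.287 of Mog in control and 0.194 to 0.245 in melanoma, and Mal at 3.02 to 3.99 and 4.11 to 4.68. In ICI against control and in the combined group against control, 0 of 33 ratios were without overlap (0.0597% and 0.0217% of all tested genes). In the combined group against melanoma, Tmem125 alone of the 33 was without overlap, and higher (1.17%), and against ICI none was (0.0923%).

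**Figure D5:**
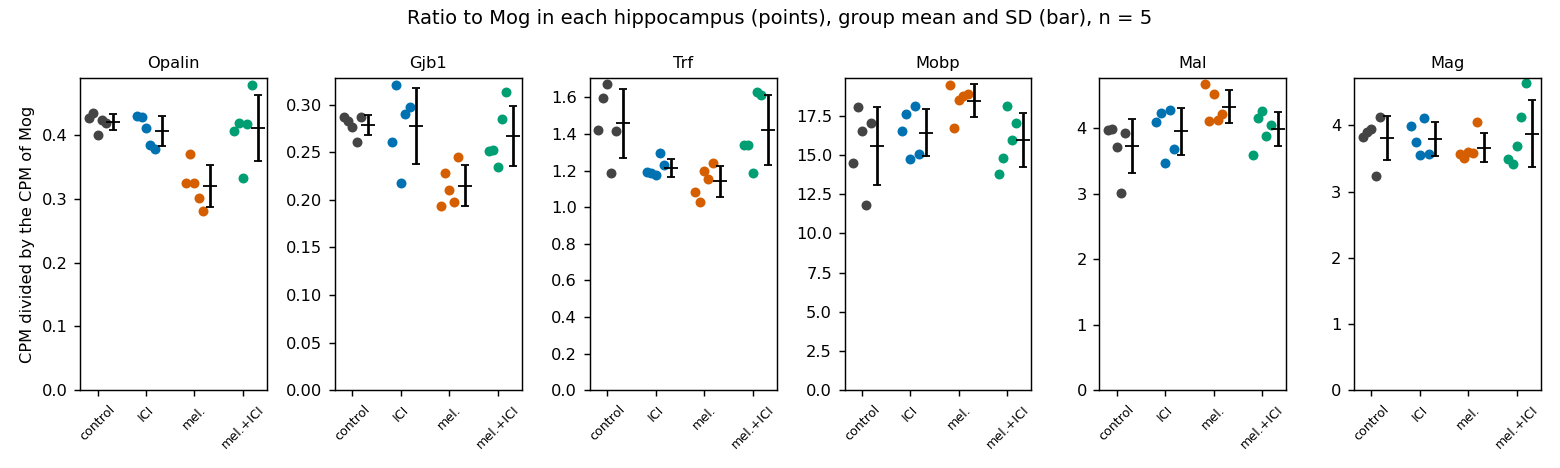
CPM of 6 myelin genes divided by the CPM of Mog (vertical axes, from 0) in each hippocampus (points), with group mean and SD (n = 5). The 5 melanoma ratios of Opalin (0.281 to 0.370) lie below the 5 control ratios (0.400 to 0.434), and those of Mal (4.11 to 4.68) above them (3.02 to 3.99).

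The same question was put to the fit across all genes, with the amount of myelin as a covariate. That name stands for the mean log2 CPM of the 28 further myelin genes, none of them a member. Myelin itself was not measured. This fit was added after the data were seen. In melanoma against control, 12 of 34 members then had an unadjusted p under 0.05, against 6.06% of all tested genes, and none passed the adjusted threshold by edgeR's quasi-likelihood test. Mobp (0.32, SE 0.09), Mal (0.31, SE 0.08), Sox8 (0.29), Hapln2 (0.27) and Cldn11 (0.21) were higher at an equal amount of myelin (3.06% of all tested genes were). Nkx2-2 (-0.52), Tmem125 (-0.34), Gjb1 (-0.32), Opalin (-0.30, SE 0.13), Trf (-0.26), Car2 (-0.25) and Aspa (-0.19) were lower (3.01%). Trf, transferrin, shares 63.5% of its exon bases with the gene Gm20425 on the same strand, so its counts are uncertain. Mobp shares 1.15% with Gm38642, also on the same strand. The count for melanoma against control stayed between 9 and 12 when each library was left out in turn, and was 12 without the 2 libraries that stood apart (7.34% of all tested genes). For the fits of this comparison with 1 library left out, shares of all tested genes are not given here.

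In the other comparisons at an equal amount of myelin, members with an unadjusted p under 0.05 numbered 3 of 34 in ICI against control (4.54% of all tested genes), 1 in the combined group against control (2.66%), 10 in the combined group against melanoma (6.21%), 6 in the combined group against ICI (8.39%) and 11 in the interaction (11.3%). With Mobp at -0.48 (SE 0.12) and Hapln2 at -0.48 (SE 0.12) leading, 8 of the 11 in the interaction were negative, where 5.23% of all tested genes had such a p and were negative. These counts depended on single libraries. The 3 in ICI against control became 0 without ICI 2 (2.41% of all tested genes) and 6 without control 2 (8.67%). The 10 in the combined group against melanoma became 4 without melanoma 1 (4.29%) and 5 without melanoma 4 (6.87%). The 6 in the combined group against ICI became 1 without ICI 3 (5.26%), and 3 without ICI 2 (6.48%), combined 2 (8.29%) or combined 4 (8.05%). The 11 in the interaction became 7 without melanoma 1 (8.16%), melanoma 4 (10.6%) or combined 5 (10.1%). In the combined group against control the count ran from 0 to 3 with 1 library left out. Shares of all tested genes for those fits are not given here. Without the 2 libraries that stood apart, the counts were 5 (4.92% of all tested genes), 2 (4.83%), 14 (8.59%), 10 (11.3%) and 14 (9.89%) in the order given. DESeq2 with the same covariate put Mobp and Hapln2 past the adjusted threshold in the interaction, Mobp at -0.48 (adjusted p 0.0193) and Hapln2 at -0.47 (adjusted p 0.0495), where 0.505% of all tested genes passed; edgeR's quasi-likelihood test gave both an adjusted p of 0.241.

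The level of striatal genes, markers of another brain region, moved with this pattern. The score of 9 striatal genes was 5.14, 6.50 and 5.63 in melanoma 1, 3 and 5 and 5.39 in combined 3, and between 2.70 and 3.54 in the other 16. The ratios of Opalin to Mog in these 4 libraries were 0.324, 0.325, 0.281 and 0.332. Melanoma 2 and 4, with striatal scores of 2.79 and 2.92, had ratios of 0.370 and 0.302, also below every control. With the striatal score as a further covariate, the count of members in melanoma against control was 4 (5.12% of all tested genes) in place of 12, and it was 9 in the combined group against melanoma (8.49%) and 8 in the interaction (12.7%). With the amount of myelin and all 4 tissue scores as covariates, it was 2 in ICI against control (5.82%), 5 in melanoma against control (4.44%), 0 in the combined group against control (2.15%), 5 against melanoma (3.36%), 1 against ICI (3.97%) and 6 in the interaction (5.61%). The part of striatal tissue in the melanoma differences beyond this was not tested.

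Stage representatives were also compared with scores of other tissues and cells (50 relations, Benjamini-Hochberg over the 50). Mog had its largest r with genes of the thalamus, a heavily myelinated neighbour, at 0.595 (rho = 0.520, permutation p = 0.00529, adjusted 0.0673). For Mog and the striatal score r was 0.25 (rho = 0.01, adjusted permutation p = 0.522), and for Mog and the choroid plexus score 0.11 (rho = 0.07, adjusted permutation p = 0.823). Pdgfra was lower where the score of neuronal genes was higher, with r = -0.72 (adjusted permutation p = 0.012) and rho = -0.67 (adjusted 0.0542), r = -0.80 without the 2 libraries farthest from the median of that score, and r = -0.59 without the 2 that stood apart. Gpr17 and the neuronal score gave r = -0.69 (adjusted permutation p = 0.012) and rho = -0.65 (adjusted 0.0542), with r = -0.59 without the 2 farthest (adjusted permutation p = 0.0955) and -0.43 without the 2 that stood apart (permutation p = 0.0777). Pdgfra is also made by meningeal fibroblasts, and with the meningeal score it had r = 0.596 (rho = 0.565, adjusted permutation p = 0.0673), or 0.728 on deviations from the group means (adjusted 0.0298). The score of astrocyte genes gave nearly the same values, r = 0.589 (rho = 0.513, adjusted permutation p = 0.0684) and 0.678 on deviations (adjusted 0.0445).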

How the data were processed

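RNA of 20 single hippocampi, 5 mice in each of 4 groups, was measured by bulk sequencing. The authors deposited raw counts per gene for each library, with gene symbol and coordinates per the file headers. The submitters' processing notes name STAR 2.5.2b and DESeq2 1.16.1 without their roles. The counting program, use of strand, genome build and annotation are not given in the sources used here. Of 49671 features, 49326 had a symbol, and 9630013A20Rik, a listed gene, was not matched.

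Counts were filtered (minimum count 10, minimum total 15), scaled by TMM factors (0.9555 to 1.043) and fitted by group over all 20 libraries with edgeR 4.0.16 in R 4.3.3 (quasi-likelihood test, 16 residual degrees of freedom, Benjamini-Hochberg over 18427 genes, threshold 0.05). Log2 CPM used a prior count of 2. Alternatives were DESeq2 1.42.0, limma 3.58.1 (voom with quality weights), RLE size factors, no filter, the 2 compared groups only, 4 tissue scores (striatum, choroid plexus, neocortex and meninges) as covariates, a replicate block and each library left out. Correlations used Python 3.11.15, scipy 1.17.1, numpy 2.4.6 and pandas 2.3.3. The fit was tested on simulated data: of 200 genes changed by 1 on the log2 scale in ICI against control, among 18427, 67.5% were recovered and 9 unchanged genes were called. The library totals, 21990624 to 25735149 counts, set the counting precision.

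Members and lists were chosen with earlier results of these data known. Values in every library are given for 7 stage representatives (Pdgfra, Olig2, Gpr17, Enpp6, Mbp, Mog, Opalin) and the member with the smallest p in each comparison; others are given by mean and SD where an unadjusted p was under 0.05, or by counts, and each pathway list by its gene with the smallest p. Cnksr3, Mycl, Zfp536 and Itpr2 were named after their values were seen. Ratios to Mog, the covariate for the amount of myelin (alone, with the striatal score or with the 4 tissue scores), and the fits without control 4 and combined 1 were chosen after the data were seen. Results for some listed genes are not reported here. No 2 libraries of the same group were copies of each other (40 pairs). Replicate numbers did not pair the samples: over 30 pairs with the same number the correlation of deviations ran from -0.35 to 0.53, and 10 pairs were over 0.1.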

Additional observations from a re-analysis of the deposited data

Results flagged for a closer look

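In 6 of the 136 groups of 5 hippocampi tested (34 members in 4 groups), 1 hippocampus lay far from the other 4, by a gap of more than 0.71 of the group's range (Dixon's 95% critical value). Chance flags about 1 in 20 groups. Melanoma 2 was high for Mog (86.36 CPM, the other 4 at 58.32 to 64.98), for Opalin (31.92 CPM, the others at 17.6 to 21.14), for Tmem125, a membrane protein of myelinating cells (11.73 CPM, the others at 6.49 to 7.726), and for Olig2 (39.34 CPM, the others at 28.59 to 31.36). Melanoma 5 was high for Pdgfra (72.66 CPM, the others at 52.77 to 57.56). Control 4 was low for Gpr17 (38.1 CPM, the others at 55.68 to 58.55), and is 1 of the 2 libraries in which long genes were low relative to short ones.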

How the results depend on the processing

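Over 53 alternatives (52 for the interaction), 0 of 34 members passed the adjusted threshold in each comparison, except in 1 setting chosen after seeing the data: DESeq2 with the amount of myelin as covariate called 2 in the interaction. The median log2 fold change in the interaction was -0.02, and became -0.47 with 4 tissue scores as covariates and -0.38 by limma voom with quality weights; the cause was not tested. Leaving out 1 library at a time, 0 members passed the adjusted threshold in any of the 6. The medians then ran from -0.43 to -0.14 in ICI against control, from -0.01 to 0.26 in melanoma against control, from -0.29 to -0.01 in the combined group against control, from -0.35 to -0.13 in the combined group against melanoma, from -0.02 to 0.31 in the combined group against ICI and from -0.17 to 0.17 in the interaction. The number of members at an unadjusted p under 0.05 ran from 0 to 8, 0 to 5, 0 to 1, 0 to 9, 0 to 2 and 0 to 1 in the same order. At the counts of 8, 5 and 9, the shares of all tested genes were 6.19%, 6.17% and 9.15%. For the combined group against control, the combined group against ICI and the interaction, shares in these fits are not given here. Under the 6 comparisons with a replicate block, which treats equal replicate numbers as pairs although they did not pair the samples, 0 members passed the adjusted threshold, the medians were -0.27, 0.18, -0.07, -0.23, 0.17 and -0.02, and 6 of 20 libraries correlated best with their own number. The count of members whose correlation with Mog had an adjusted p under 0.05 was 30 of 33, with Pdgfra negative. It was 29 or 30 under all 4 alternatives, but never of the same members. Pdgfra dropped out by rho, without the 2 libraries farthest from the median of Mog, without the 2 that stood apart and on deviations from the group means. On deviations Nkx2-2 took its place. Shares of all tested genes at this threshold are not given here. In ICI against control the SE of a myelinating member's log2 fold change ran from 0.167 (Car2) to 0.356 (Ninj2). In simulated data for that comparison, 67.5% of changes of 1 on the log2 scale were recovered, so with 5 mice a group changes of that size could be missed. The changed genes were drawn from all tested genes, with a median within-group SD of 0.264, against 0.483 for the 23 myelinating members. The share recovered thus does not describe these members.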
